A study of Mus musculus with 6 samples.

Results

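The collagen genes are the protein-coding mouse genes whose symbols consist of Col, a number, the letter a and a further number, and each encodes 1 chain of a collagen. The deposited FPKM tables held 44 of them among 54532 gene IDs, which is every such gene in the mouse annotation used here (GENCODE M21, GRCm38). FPKM gives the fragments of a gene relative to its exon length and to all fragments sequenced, so levels can be compared between chains of different length. Of the 44 chains, 43 were above 0 in at least 1 tumor, and 33 had a mean of at least 0.5 FPKM and were tested. They were divided by structure into 11 fibrillar, 6 basement membrane, 9 FACIT (fibril-associated collagens with interrupted triple helices) and 18 other chains, of which 10, 5, 7 and 11 were tested.

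Collagen chains wind around one another into triple helices, and these assemble outside the cell into fibrils, sheets or beaded filaments. Fibrillar collagens I, III and V form the bulk of connective tissue and of fibrotic stroma, II, IX and XI are best known from cartilage, and IV makes the network of basement membranes beneath epithelium and around vessels. FACIT collagens such as IX, XII and XIV sit on the surface of fibrils, and collagen VI forms microfilaments around cells. In breast cancer, dense collagen around the tumor is a recognized feature of the fibrotic microenvironment.

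RNA from mammary tumors of NeuT/ATTAC mice was sequenced in 3 samples labelled anti-PD-1 mAb and 3 labelled isotype IgG, each called a tumor below, and the groups are compared as anti-PD-1 against IgG. The mice of both groups carried both transgenes, an Erbb2 transgene under the MMTV promoter, which is active in mammary epithelium, and FAT-ATTAC, which kills adipocytes when the drug AP20187 is given. Both groups received AP20187 at 0.4 mg/kg from 6 weeks of age to induce fibrosis, and then 100 µg of antibody 2 times a week from 8 weeks of age. There was no tumor without AP20187 and none without antibody, so neither the induced fibrosis nor the antibody injections can be told apart from what all 6 tumors share. The labels number the tumors within each group without saying more of their origin. A legend of the paper speaks of tumor RNA pooled in each group, with an N larger than the number of samples and without saying what N counts. How many mice each sample stands for is therefore not known, and the p-values below measure only the spread between these 6 files. The RNA came from whole tumors, in which fewer cells of a type and less RNA per cell cannot be told apart.

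The FPKM steps gave totals of 22009894 to 25596231 reads per tumor. Of these, between 21075641 and 23852764 were recovered in gene IDs whose FPKM fell on whole reads in all tumors. Luminal epithelial markers (8 genes, led by Krt18, Epcam and Krt8) summed to between 2244 and 3082 FPKM in the IgG tumors and between 3116 and 4045 FPKM in the anti-PD-1 tumors, without overlap, although 3 of the 8 had lower means in anti-PD-1 and 1, Krt19, was called lower (log2 fold change -2.03), whereas adipocyte markers summed to at most 10.8 FPKM. Across 15069 tested genes, 587 were higher in anti-PD-1 and 683 were lower at an unadjusted p under 0.05 with at least a 1.5-fold difference, and the median log2 fold change was 0.01. With limma no gene had a Benjamini-Hochberg adjusted p under 0.05 (0% of tested genes), against 1848 genes at an unadjusted p under 0.05 (12.3%), and limma-voom on recovered reads gave 1 gene at the adjusted threshold. The counts of called chains below therefore rest on unadjusted p-values.

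Collagen IX chain Col9a1 had the highest FPKM of all 44 chains in every tumor. The promoters of Col9a1 and of the 3 fibrillar chains Col3a1, Col11a1 and Col11a2 are shown because these genes were the most abundant chain, a stromal chain whose level differed widely between tumors, and the 2 collagen XI chains that were called higher in anti-PD-1. Each is the 250 bases before the RefSeq start on GRCm38.p6, 5′ to 3′ on the plus strand, at chr1:24177360-24177609, chr1:45311288-45311537, chr3:114030290-114030539 and chr17:34038888-34039137 in this order. Capitals mark matches on either strand to CCAAT (the CCAAT box), TATAAA (the TATA box), GGGCGG (a GC box) and AACAAT (a Sox core motif).
Col9a1: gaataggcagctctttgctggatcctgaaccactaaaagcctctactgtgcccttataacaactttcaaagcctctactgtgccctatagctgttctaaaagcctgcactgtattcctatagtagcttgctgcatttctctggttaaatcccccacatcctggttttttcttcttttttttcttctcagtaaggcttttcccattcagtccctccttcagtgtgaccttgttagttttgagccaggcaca
Col3a1: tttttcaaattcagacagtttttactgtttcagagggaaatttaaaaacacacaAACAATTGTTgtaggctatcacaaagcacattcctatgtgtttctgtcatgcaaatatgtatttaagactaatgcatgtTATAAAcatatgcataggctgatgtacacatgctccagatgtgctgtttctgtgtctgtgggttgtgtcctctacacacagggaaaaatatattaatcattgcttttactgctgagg
Col11a1: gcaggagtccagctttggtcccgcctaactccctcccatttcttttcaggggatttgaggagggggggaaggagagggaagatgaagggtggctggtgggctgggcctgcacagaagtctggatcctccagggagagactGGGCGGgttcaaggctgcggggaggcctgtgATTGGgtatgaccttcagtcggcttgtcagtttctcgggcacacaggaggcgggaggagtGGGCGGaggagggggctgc
Col11a2: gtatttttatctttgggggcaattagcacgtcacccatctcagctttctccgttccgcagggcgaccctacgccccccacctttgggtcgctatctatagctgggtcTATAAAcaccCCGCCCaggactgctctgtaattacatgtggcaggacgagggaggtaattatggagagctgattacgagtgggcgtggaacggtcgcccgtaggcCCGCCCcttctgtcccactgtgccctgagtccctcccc
The Col9a1 window held none of the 4 motifs, Col3a1 held TATAAA and 2 overlapping AACAAT matches on opposite strands, Col11a1 held CCAAT and 2 GGGCGG, and Col11a2 held TATAAA and 2 GGGCGG. Of 38 windows for 35 collagen genes, CCAAT was in 13, TATAAA in 5, GGGCGG in 22 and AACAAT in 1, and the corresponding shares of all 32851 RefSeq windows of this length were 33.85%, 12.37%, 32.74% and 9.424%. A match is a description of the letters and not a binding site. RefSeq gives Col9a1 another start 17593 bases downstream, and FPKM per gene does not separate the 2 starts. Col1a1, Col2a1 and Col14a1 were not among the promoters used here.

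**Figure D1:**
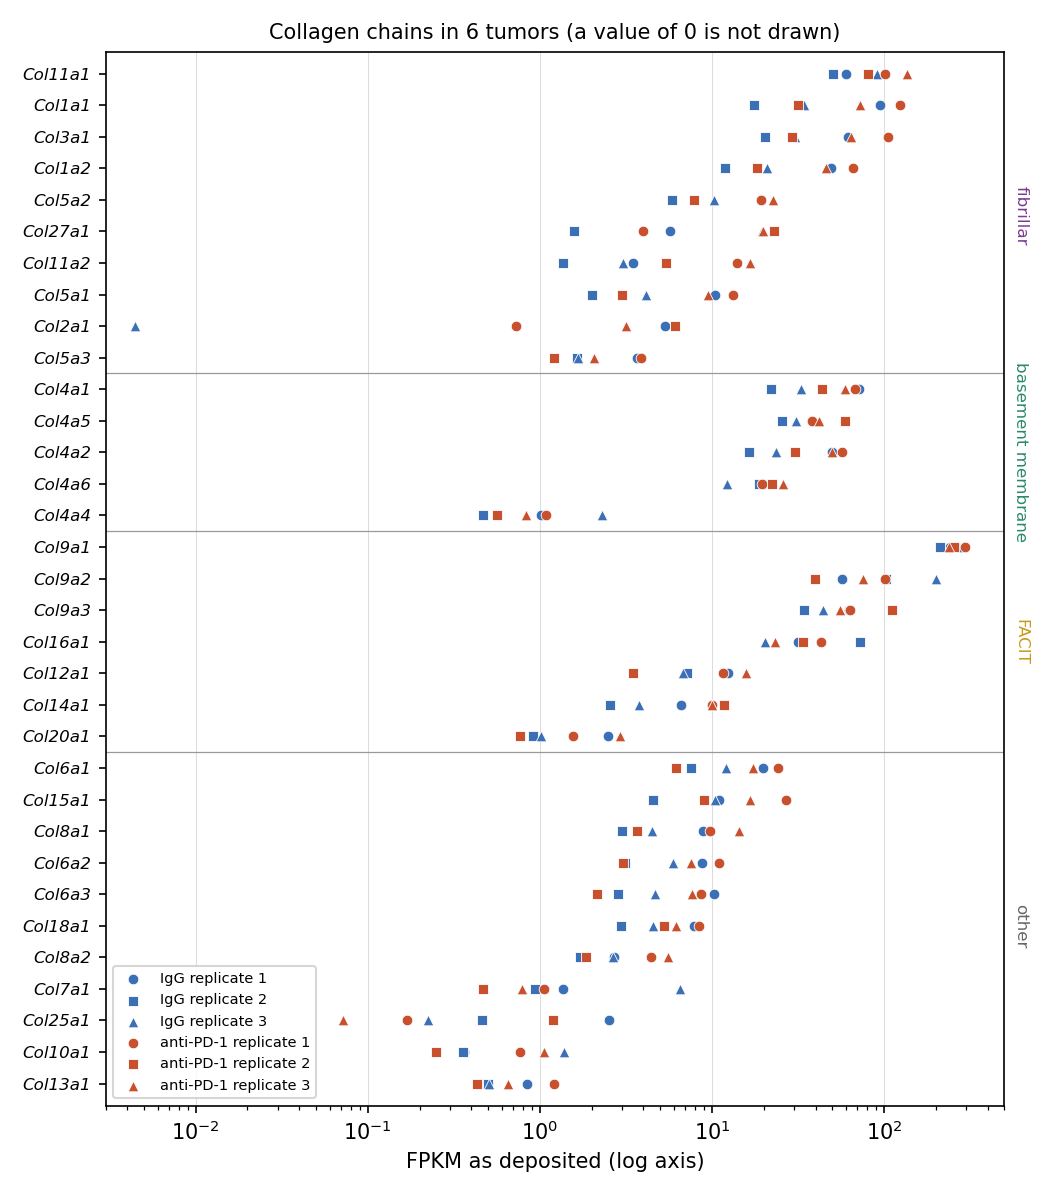
FPKM of the 33 tested collagen chains in the 6 tumors, on a log axis, by class and in order of mean level. Blue symbols are IgG and red symbols anti-PD-1 tumors, with circles, squares and triangles for replicates 1, 2 and 3. Col9a1 lies between 212 and 297 FPKM in all tumors, whereas Col1a1 runs from 17.5 to 124 FPKM.

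Values of a group are given in the order of replicates 1, 2 and 3. The 44 chains together reached 983, 656 and 919 FPKM in the IgG tumors, and in the anti-PD-1 tumors they reached 1261, 851 and 1071 FPKM. This was between 0.188% and 0.371% of all FPKM. The group means were 853 ± 174 FPKM for IgG and 1061 ± 205 FPKM for anti-PD-1 (SD, n = 3 each), and the groups overlapped. FACIT chains were the largest class by FPKM in all 6 tumors, with 415, 431 and 548 FPKM in IgG and 528, 455 and 423 FPKM in anti-PD-1, and their group means were nearly the same (465 ± 72.6 and 469 ± 54.0 FPKM, SD, n = 3 each). Fibrillar chains summed to 313, 113 and 215 FPKM in IgG and to 451, 206 and 392 FPKM in anti-PD-1, and they formed between 17.2% and 36.6% of collagen FPKM. Basement membrane chains summed to 181, 83.2 and 102 FPKM in IgG and to 183, 156 and 178 FPKM in anti-PD-1, so that IgG replicate 1 lay inside the anti-PD-1 range. The remaining chains gave 28.6 to 97.9 FPKM. Col9a1 alone accounted for between 22.4% and 32.3% of the collagen FPKM of a tumor.

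**Figure D2:**
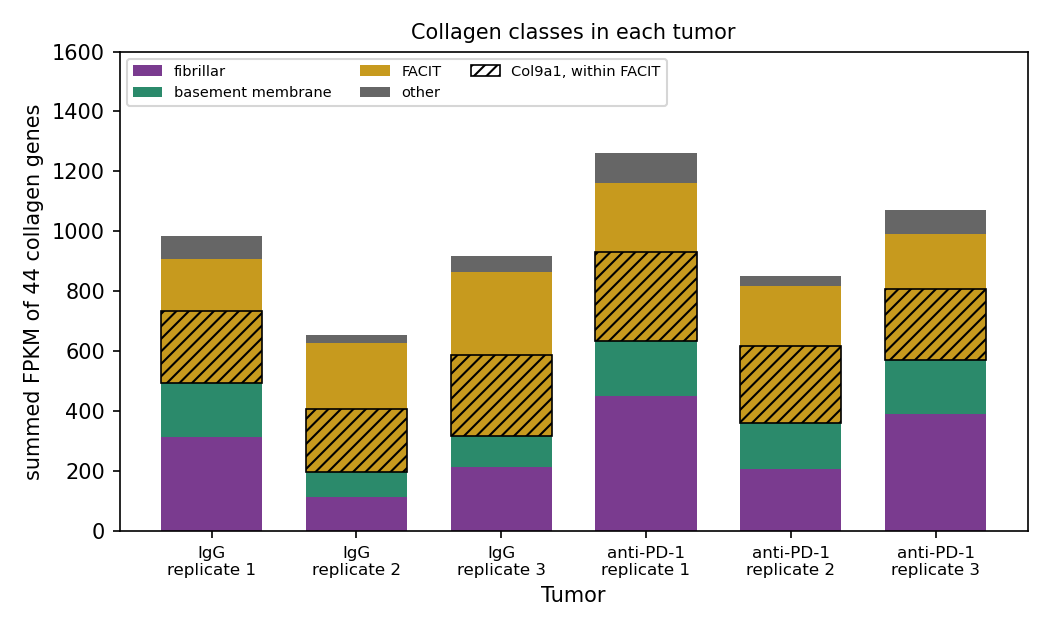
Summed FPKM of the 44 collagen genes in each tumor, stacked by class, with the share of Col9a1 hatched within the FACIT class. Totals run from 656 FPKM in IgG replicate 2 to 1261 FPKM in anti-PD-1 replicate 1, and the hatched block changes less between tumors than the fibrillar block.

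Of the 33 tested chains, 28 had a higher mean log2 level in anti-PD-1 (50.8% of all tested genes did), and the median log2 fold change was 0.48. Over the 43 chains above 0, without the filter on low FPKM, the median was 0.17. At an unadjusted p under 0.05 and at least 1.5-fold, 3 of 33 chains were higher, namely Col11a2, Col14a1 and Col11a1, beside 3.9% of all tested genes, and 0 were lower, beside 4.53%. Groups did not overlap in 2 chains, Col11a2 and Col14a1, both higher in anti-PD-1 (9.3% of all tested genes did not overlap in this direction), and in 0 chains in the lower direction (8.75%). In limma 4 chains had an unadjusted p under 0.05 and none an adjusted p under 0.05, the lowest adjusted p being 0.344, while limma-voom gave 4 and 0 of 32 chains. The 4 chains were Col11a2, Col14a1, Col11a1 and Col4a5 in limma, and Col14a1, Col11a1, Col4a5 and Col2a1 in limma-voom, which did not test Col11a2. By class, 10 of 10 fibrillar chains had a higher mean in anti-PD-1 (median log2 fold change 0.73, 2 called), 4 of 5 basement membrane chains (0.54, none called), 5 of 7 FACIT chains (0.13, 1 called) and 9 of 11 others (0.17, none called). The size of this difference depended on IgG replicate 2 and anti-PD-1 replicate 1. Without the latter, 21 of 33 chains had a higher mean. Without IgG replicate 2, 22 of 33 did, the median over all tested chains was 0.21, and the fibrillar median was 0.23.

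**Figure D3:**
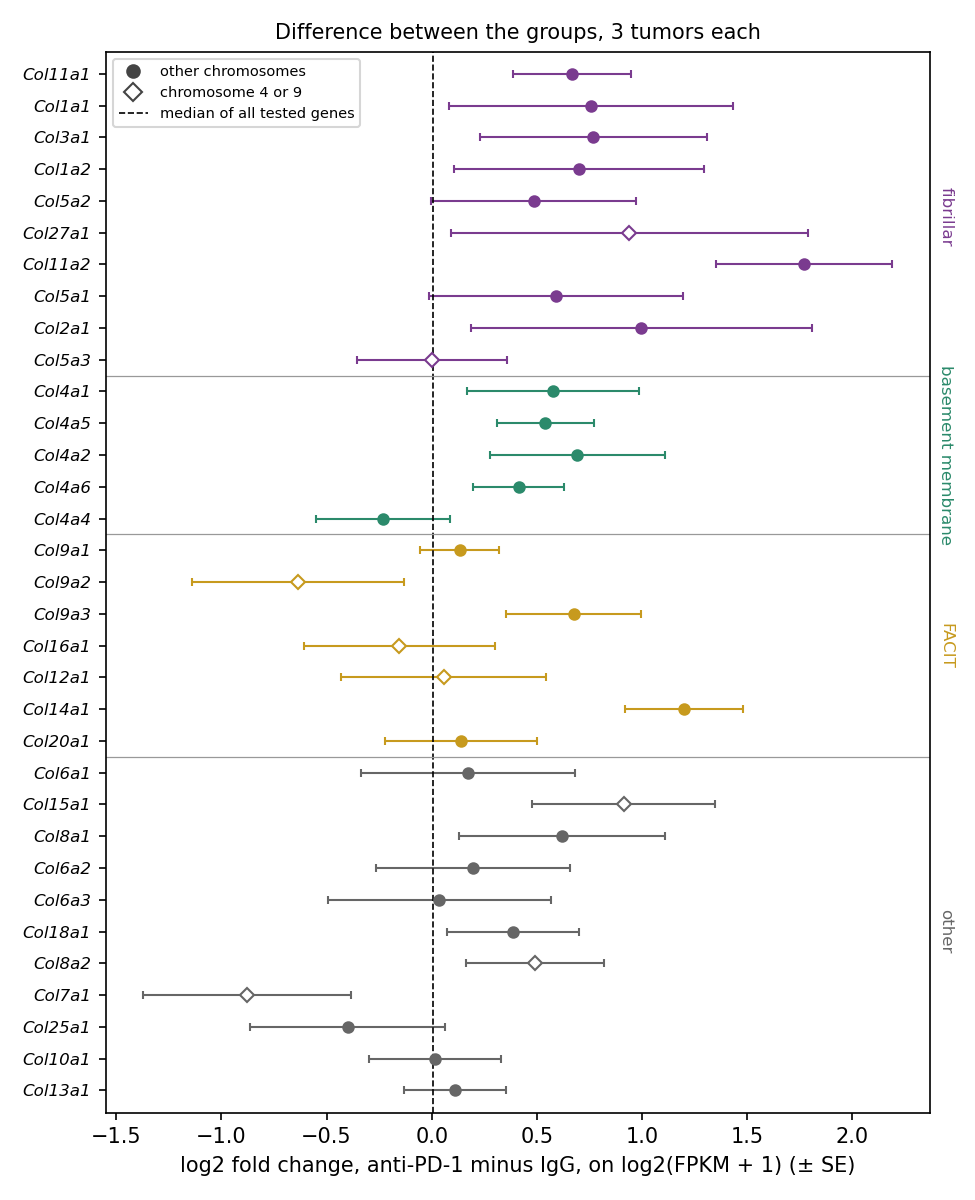
Log2 fold change of each tested chain, anti-PD-1 minus IgG on log2(FPKM + 1), with its SE from limma, 3 tumors per group. Diamonds mark genes on chromosomes 4 and 9, and the dashed line is the median of all tested genes at 0.01. Col11a2 at 1.77 and Col14a1 at 1.20 lie farthest to the right, and Col7a1 at -0.88 lies farthest to the left.

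Among fibrillar collagens, the clearest difference was in collagen XI, whose chains nucleate thin fibrils and limit their width. Col11a2 (ENSMUSG00000024330, chromosome 17, 34039437 to 34066685) was at 3.49, 1.37 and 3.03 FPKM in IgG and at 14.0, 5.42 and 16.6 FPKM in anti-PD-1. Every anti-PD-1 tumor was above every IgG tumor. The log2 fold change was 1.77 (SE 0.42, adjusted p = 0.344 by limma), and the exact two-sided permutation p was 0.1, the smallest that 3 against 3 tumors can give. The difference passed the unadjusted threshold with each tumor left out in turn (1.49 to 2.22), but Col11a2 FPKM did not fall on whole reads, so the reads behind it are unknown. Its promoter above, with a TATA box match, lies 299 bases before the annotated gene start.

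Col11a1 (ENSMUSG00000027966, chromosome 3, 114030540 to 114220718) was the most abundant fibrillar chain, at 59.9, 50.4 and 90.5 FPKM in IgG and 101, 80.2 and 136 FPKM in anti-PD-1. IgG replicate 3 lay above anti-PD-1 replicate 2, so the groups overlapped. Its log2 fold change was 0.67 (SE 0.28, unadjusted p = 0.0481 and adjusted p = 0.406 by limma, exact permutation p = 0.2). The call was lost without IgG replicate 1 or 2, without anti-PD-1 replicate 1 or 3, under quantile normalization, without the intensity trend and under both other filters, while the log2 fold change stayed between 0.47 and 0.90. In every tumor Col11a1 FPKM exceeded Col11a2 FPKM, by 17.2 to 36.9 times in IgG and by 7.24 to 14.8 times in anti-PD-1, and the ranges of this ratio did not overlap. The ratio contains the Col11a2 values, which were already separate between the groups, so it adds no separate result.

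The third chain of collagen XI is in cartilage a product of Col2a1, the major fibrillar collagen of that tissue. Col2a1 (ENSMUSG00000022483, chromosome 15, 97975602 to 98004695) was present in 4 tumors and close to absent in 2. It was at 5.36, 0 and 0.0044 FPKM in IgG, which is 1091, 0 and 1 reads, and at 0.727, 6.06 and 3.18 FPKM in anti-PD-1, which is 172, 1359 and 698 reads. IgG replicate 1 was higher than 2 of the anti-PD-1 tumors. The log2 fold change on the log2(FPKM + 1) scale was 1.00 (SE 0.81, adjusted p = 0.632 by limma, exact permutation p = 0.3), and without IgG replicate 1 it was 1.88 and passed the unadjusted threshold. Without both IgG replicate 2 and anti-PD-1 replicate 2 it was 0.089. Against 2 IgG tumors at or near 0, the value depends on the number added before the logarithm, and was 2.73 with 0.1 in place of 1. In limma-voom on the recovered reads of all 6 tumors it was 5.90 (unadjusted p = 0.0423, adjusted p = 0.385), past the unadjusted threshold.

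Collagens I and III, the main chains of scar and stroma, differed more between the tumors of a group than between the groups. Col1a1 (ENSMUSG00000001506, chromosome 11, 94936224 to 94953042) was at 94.2, 17.5 and 34.5 FPKM in IgG and 124, 31.8 and 72.1 FPKM in anti-PD-1, a range of 7.06-fold. Anti-PD-1 replicate 1 and IgG replicate 1 were the 2 highest tumors and IgG replicate 2 was the lowest, so the groups were interleaved. On the log2 scale the fold change was 0.76 (SE 0.67, adjusted p = 0.666 by limma, exact permutation p = 0.5).

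Col3a1 (ENSMUSG00000026043, chromosome 1, 45311538 to 45349706) followed the same order at the top, at 62.0, 20.4 and 30.5 FPKM in IgG and 105, 29.0 and 64.3 FPKM in anti-PD-1, except that anti-PD-1 replicate 3 stood just above IgG replicate 1. Its log2 fold change was 0.77 (SE 0.54, adjusted p = 0.588 by limma, exact permutation p = 0.4). Col1a2, which joins Col1a1 in the collagen I trimer, was at 49.0, 12.0 and 21.0 FPKM in IgG and 66.3, 18.3 and 45.8 FPKM in anti-PD-1. The ratio of Col1a1 to Col1a2 FPKM was between 1.46 and 1.92 in the 6 tumors, a far narrower range than either chain alone. Leaving out IgG replicate 2 lowered the log2 fold change of Col1a1 to 0.21 and that of Col1a2 to 0.25, while leaving out IgG replicate 1 raised them to 1.39 and 1.22. Col3a1 was at 0.35 without anti-PD-1 replicate 1, and at 1.26 without anti-PD-1 replicate 2, where it passed the unadjusted threshold and the remaining groups did not overlap.

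The minor fibrillar chains were interleaved as well. Col5a2 and Col5a1, which copolymerize with collagen I and regulate fibril width, were between 5.86 and 22.8 FPKM and between 2.01 and 13.3 FPKM. Their log2 fold changes were 0.48 and 0.59, neither past the unadjusted threshold, and with 1 tumor left out they ran from 0.11 to 0.92 and from 0.15 to 1.13. Col27a1, a fibrillar chain of developing cartilage on chromosome 4, was at 5.73, 1.58 and 19.5 FPKM in IgG and 3.98, 23.0 and 19.8 FPKM in anti-PD-1, so each group held both high and low tumors (log2 fold change 0.94, SE 0.85, and 0.21 to 1.70 with 1 tumor left out). Without IgG replicate 2 and anti-PD-1 replicate 2 its direction turned, at -0.20. Col5a3 was between 1.21 and 3.86 FPKM with a log2 fold change of 0.0015, and Col24a1 was below the filter.

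Basement membrane chains were expressed at intermediate levels and 4 of the 5 tested had higher means in anti-PD-1. Col4a1 (ENSMUSG00000031502, chromosome 8, 11198423 to 11312826) and Col4a2 (ENSMUSG00000031503, chromosome 8, 11312805 to 11449287) form the common collagen IV trimer. Col4a1 was at 71.3, 22.0 and 32.9 FPKM in IgG and 67.7, 43.6 and 59.6 FPKM in anti-PD-1. Col4a2 was at 50.1, 16.5 and 23.6 FPKM in IgG and 56.8, 30.3 and 49.7 FPKM in anti-PD-1. In both chains IgG replicate 1 was among the highest tumors and the other IgG tumors were the lowest. The log2 fold changes were 0.58 for Col4a1 (SE 0.41, adjusted p = 0.592 by limma, exact permutation p = 0.4) and 0.69 for Col4a2 (SE 0.42, adjusted p = 0.523 by limma, exact permutation p = 0.3). Both passed the unadjusted threshold without IgG replicate 1, at 1.04 and 1.13, with no overlap between the remaining tumors, and without IgG replicate 2 they were at 0.21 and 0.35. These genes lie head to head and overlap by 22 bases, and the ratio of Col4a1 to Col4a2 FPKM was between 1.19 and 1.44 in the 6 tumors.

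Col4a5 and Col4a6 form another head to head pair on the X chromosome, 1308 bases apart, and encode chains of basement membranes of epithelium and smooth muscle. Col4a5 (ENSMUSG00000031274, X, 141475385 to 141689234) was at 38.3, 25.4 and 30.6 FPKM in IgG and 38.0, 59.0 and 41.6 FPKM in anti-PD-1. Only IgG replicate 1 reached into the anti-PD-1 range, just above its lowest tumor. The log2 fold change was 0.54 (SE 0.23, adjusted p = 0.406 by limma, exact permutation p = 0.2), which had an unadjusted p of 0.0489 but was below 1.5-fold. It exceeded 1.5-fold and was called without IgG replicate 1 (0.69) or anti-PD-1 replicate 1 (0.66). It was 0.40 without IgG replicate 2, 0.36 without anti-PD-1 replicate 2 and 0.22 without both, each with an unadjusted p above 0.05. Col4a6 was at 19.9, 18.9 and 12.3 FPKM in IgG and 19.6, 22.2 and 25.8 FPKM in anti-PD-1 (log2 fold change 0.41, and 0.21 to 0.53 with 1 tumor left out). The ratio within this pair varied from 1.34 to 2.65. The third pair, Col4a3 and Col4a4, 71 bases apart and known from kidney glomeruli, was low. Col4a4 was between 0.467 and 2.28 FPKM, and Col4a3 was at most 0.088 FPKM.

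**Figure D4:**
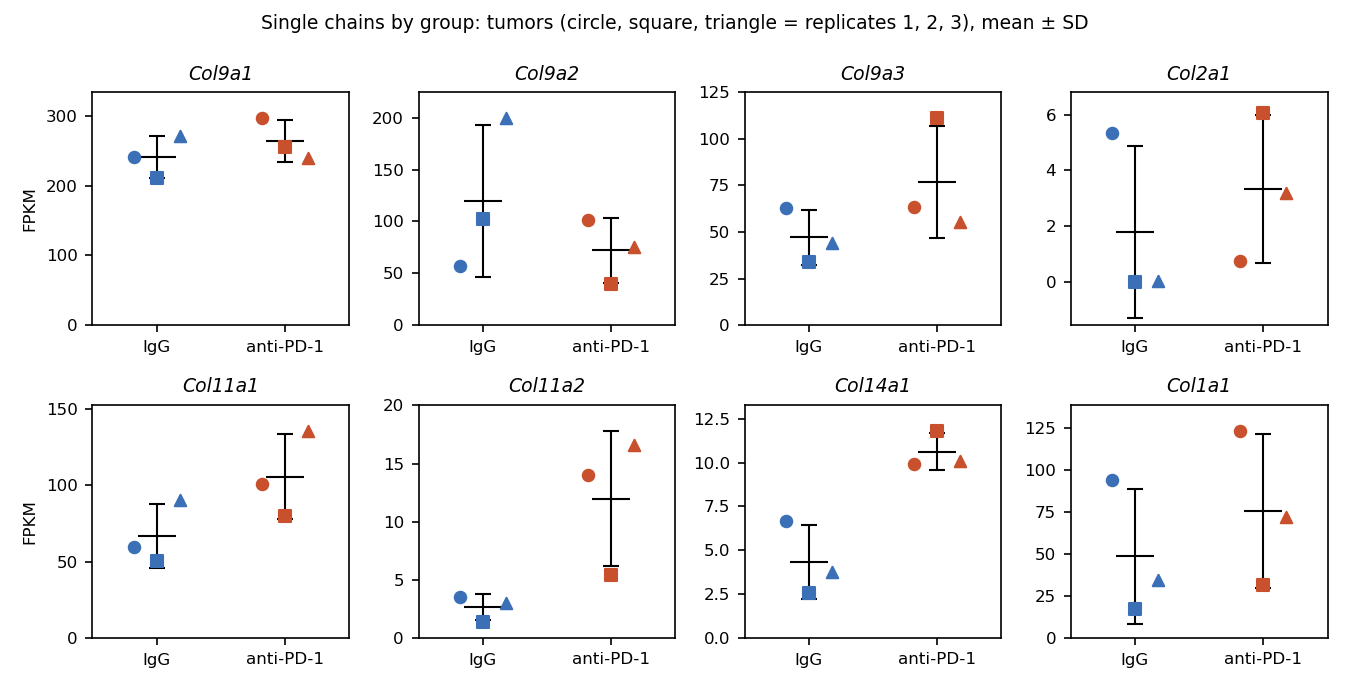
FPKM of 8 collagen chains by group, with circles, squares and triangles for replicates 1, 2 and 3 and bars for the mean ± SD of 3 tumors. Groups are separate for Col11a2 and Col14a1 and overlap for the other 6 chains, and Col2a1 is at or near 0 in IgG replicates 2 and 3.

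Collagen IX, a FACIT heterotrimer of Col9a1, Col9a2 and Col9a3 that coats cartilage fibrils, was the most abundant collagen by FPKM. Col9a1 (ENSMUSG00000026147, chromosome 1, 24177610 to 24252684) was at 242, 212 and 272 FPKM in IgG and 297, 255 and 240 FPKM in anti-PD-1. It varied by only 1.40-fold over all tumors, the smallest range of the 33 tested chains, and the groups overlapped. Its log2 fold change was 0.13 (SE 0.19, adjusted p = 0.801 by limma, exact permutation p = 0.5).

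The partner chains did not keep a fixed proportion to Col9a1. Col9a2 (ENSMUSG00000028626, chromosome 4, 121039385 to 121055322) was at 57.1, 102 and 199.9 FPKM in IgG and 101, 39.6 and 75.6 FPKM in anti-PD-1. Col9a3 (ENSMUSG00000027570, chromosome 2, 180597790 to 180622189) was at 63.0, 34.1 and 44.1 FPKM in IgG and 63.4, 111 and 55.5 FPKM in anti-PD-1. The tumor with the most Col9a3, anti-PD-1 replicate 2, was the tumor with the least Col9a2. The log2 fold changes were -0.64 for Col9a2 (SE 0.50, adjusted p = 0.625 by limma, exact permutation p = 0.4) and 0.68 for Col9a3 (SE 0.32, adjusted p = 0.436 by limma, exact permutation p = 0.2), and neither passed the unadjusted threshold. Leaving out IgG replicate 1 gave -1.07 for Col9a2, and leaving out IgG replicate 3 gave -0.18. Col9a3 passed the threshold, with no overlap, without IgG replicate 1 (0.90) or anti-PD-1 replicate 3 (0.87), but was at 0.38 without anti-PD-1 replicate 2 and at 0.18 without both replicate 2 tumors. The ratio of Col9a1 to Col9a2 ran from 1.36 to 6.44 and that of Col9a1 to Col9a3 from 2.29 to 6.21.

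Col14a1 (ENSMUSG00000022371, chromosome 15, 55307750 to 55520803), a FACIT chain on the fibrils of dense connective tissue and skin, was at 6.65, 2.54 and 3.77 FPKM in IgG and 9.94, 11.8 and 10.1 FPKM in anti-PD-1. Every anti-PD-1 tumor was above every IgG tumor, and the anti-PD-1 tumors lay close together (10.6 ± 1.05 FPKM, SD, n = 3). The log2 fold change was 1.20 (SE 0.28, adjusted p = 0.344 by limma, exact permutation p = 0.1). It passed the unadjusted threshold with each tumor left out in turn, at 0.94 or more. Of the other FACIT chains, Col16a1, which is found in many connective tissues, was at 31.4, 72.6 and 20.4 FPKM in IgG and 43.0, 33.6 and 23.1 FPKM in anti-PD-1, with both the highest and the lowest tumor in IgG. Col12a1, a partner of Col14a1 on fibrils, was between 3.49 and 15.7 FPKM (log2 fold change 0.056). Col20a1 was between 0.77 and 2.91 FPKM, and shares exon bases on the same strand with the gene model BX649560.1, so its reads are uncertain. Col22a1 and Col19a1 were below the filter.

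Among the other collagens, the 3 most abundant chains were Col6a1, Col15a1 and Col8a1. Col6a1 (ENSMUSG00000001119, chromosome 10, 76708792 to 76726168), a chain of the beaded microfilaments, was at 19.9, 7.54 and 12.1 FPKM in IgG and 24.2, 6.17 and 17.4 FPKM in anti-PD-1. Both groups spanned nearly the whole range (log2 fold change 0.17, SE 0.51, adjusted p = 0.911 by limma, exact permutation p = 0.8). Its partners Col6a2 and Col6a3 had log2 fold changes of 0.20 and 0.036, and the ratio of Col6a1 to Col6a2 FPKM was between 2.03 and 2.42. Col6a4 was at 0 in all tumors, and Col6a5 and Col6a6 were below the filter.

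Col15a1 (ENSMUSG00000028339, chromosome 4, 47208161 to 47313167), a basement membrane zone proteoglycan, was at 10.9, 4.53 and 10.4 FPKM in IgG and 27.0, 9.03 and 16.6 FPKM in anti-PD-1. Only anti-PD-1 replicate 2 lay within the IgG range. Its log2 fold change was 0.91 (SE 0.44, adjusted p = 0.438 by limma, exact permutation p = 0.3). Col18a1, the relative of Col15a1 whose end fragment is endostatin, had a log2 fold change of 0.39, and 0.69 without IgG replicate 1, where it was called, but 0.11 without IgG replicate 2. Col8a1 (ENSMUSG00000068196, chromosome 16, 57624258 to 57754737), a short chain network collagen of vessels, was at 8.83, 3.01 and 4.46 FPKM in IgG and 9.71, 3.69 and 14.4 FPKM in anti-PD-1 (log2 fold change 0.62, SE 0.49, adjusted p = 0.625 by limma, exact permutation p = 0.4). Without anti-PD-1 replicate 2, Col15a1, Col8a1 and its partner Col8a2 each passed the unadjusted threshold, at 1.29, 1.10 and 0.85. Their lowest values with 1 tumor left out were 0.55 for Col15a1 (without anti-PD-1 replicate 1), and 0.25 for both Col8a1 and Col8a2 (without anti-PD-1 replicate 3).

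Beside Col9a2, the chains with the most negative values were Col7a1 and Col25a1, and they too depended on 1 tumor. Col7a1 (ENSMUSG00000025650, chromosome 9, 108953586 to 108984875), the anchoring fibril of epithelium, was at 1.36, 0.932 and 6.48 FPKM in IgG and 1.06, 0.469 and 0.790 FPKM in anti-PD-1. IgG replicate 3 stood above the other 5 tumors. The log2 fold change was -0.88 (SE 0.49, adjusted p = 0.497 by limma, exact permutation p = 0.2), and leaving out IgG replicate 3 gave -0.28. Leaving out IgG replicate 2 gave -1.25, where it was called lower. It was -1.35 with 0.1 in place of 1 and -1.46 in limma-voom, past the threshold in neither. Col25a1 (ENSMUSG00000058897, chromosome 3, 130131501 to 130599877), a transmembrane collagen of neurons, was at 2.52, 0.460 and 0.225 FPKM in IgG and 0.169, 1.18 and 0.072 FPKM in anti-PD-1. Its log2 fold change was -0.40 (SE 0.46, adjusted p = 0.752 by limma, exact permutation p = 0.5), and ran from -0.72 without anti-PD-1 replicate 2 to 0.066 without IgG replicate 1. For this low gene it was -0.998 with 0.1 in place of 1 before the logarithm, and -1.34 in limma-voom. Col10a1, the collagen of hypertrophic cartilage, was between 0.25 and 1.39 FPKM and overlaps Nt5dc1 on the opposite strand. The 11 chains below the filter, among them Col17a1, Col23a1, Col26a1 and Col28a1, were at no more than 0.687 FPKM in any tumor.

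**Figure D5:**
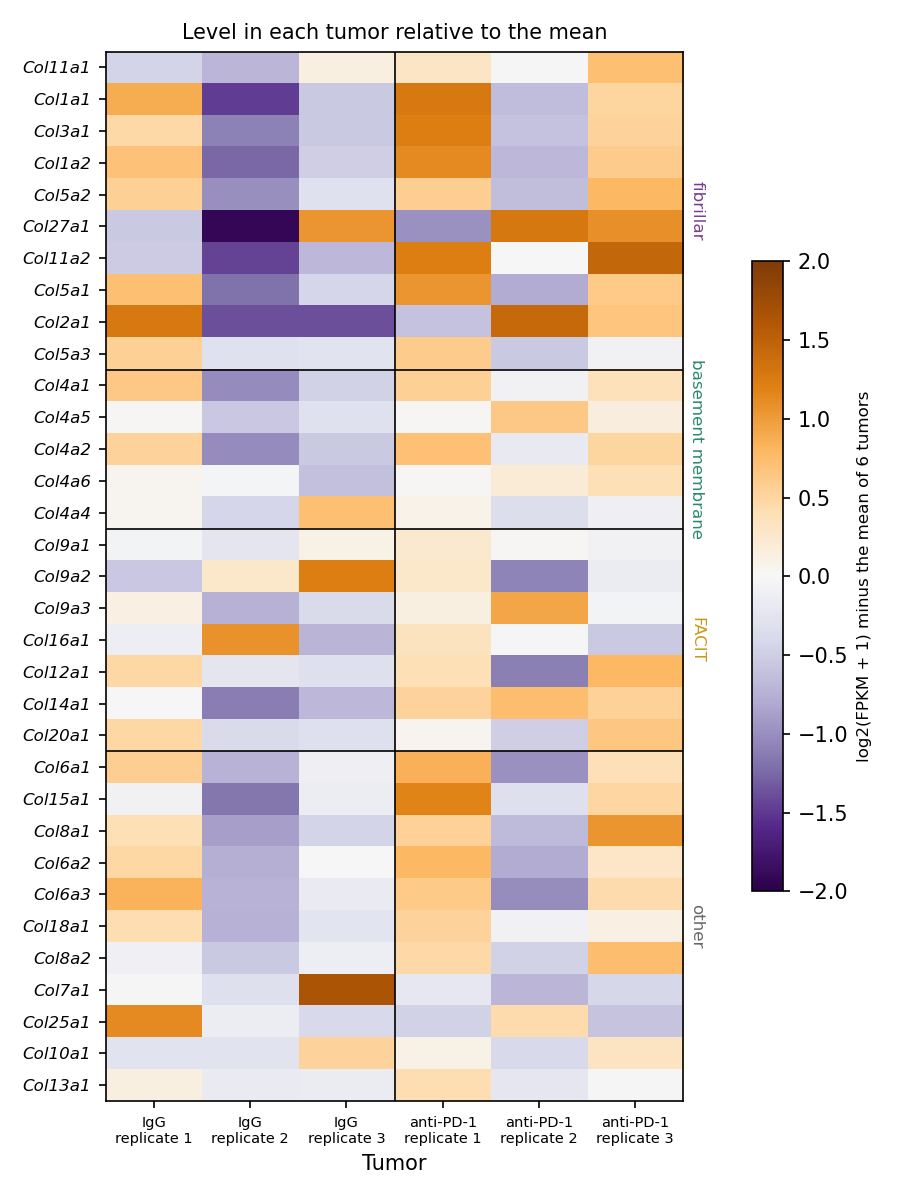
Level of each tested chain in each tumor as log2(FPKM + 1) minus its mean over the 6 tumors, by class. Orange is above and purple below the mean, and the vertical line separates IgG from anti-PD-1. Most rows are purple in IgG replicate 2, and many are also purple in anti-PD-1 replicate 2.

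Many chains shared their lowest tumor or their 3 highest tumors regardless of group. IgG replicate 2 was the lowest tumor for 20 of 33 tested chains (22.6% of all tested genes), including 9 of 10 fibrillar chains. Anti-PD-1 replicate 2 was the lowest for another 10, and the share of all tested genes lowest in that tumor was not computed. The 10 fibroblast markers summed to 54.9, 48.3 and 52.1 FPKM in IgG and 110, 31.8 and 63.3 FPKM in anti-PD-1, with 7 of 10 higher in mean and 1, Clec3b, called higher, beside 50.8% and 3.9% of all tested genes. The 3 tumors with the highest fibroblast sum, anti-PD-1 replicates 1 and 3 and IgG replicate 1, were also the 3 highest tumors for 18 of 33 chains (5.48% of all tested genes), among them 6 of 10 fibrillar and 8 of 11 other chains but 2 of 7 FACIT chains. The third place rested on 54.9 against 52.1 FPKM, and by the median of the centred log2 levels of these markers IgG replicate 3 (-0.050) stood above IgG replicate 1 (-0.099), so the top 3 tumors changed with the summary used. The order of all 6 tumors was that of the fibroblast sum in 0 of 33 chains. Skeletal muscle markers summed to 1.65, 143 and 5.52 FPKM in IgG and 78.0, 157 and 0.689 FPKM in anti-PD-1, highest in the same 2 tumors in which most chains were lowest. Without these 2 tumors, a choice made after seeing the data, 28 of 33 chains had a higher mean in anti-PD-1 (49.2% of all tested genes in that fit), the median was 0.31, and 4 were called higher (2.81% of all tested genes), namely Col11a2, Col14a1, Col15a1 and Col8a2. Other marker lists were counted as well. Of the tested markers, 7 of 7 of macrophages, 7 of 7 of skeletal muscle and 5 of 8 of luminal epithelium had higher means in anti-PD-1. So had 3 of 6 of Schwann cells, 1 of 8 of endothelium, 1 of 7 of smooth muscle and pericytes and 0 of 3 of basal epithelium, beside 50.8% of all tested genes. Of these, 1 macrophage marker was called higher, and 1 marker each of luminal epithelium, basal epithelium and Schwann cells was called lower, beside 3.9% and 4.53% of all tested genes. Macrophage markers summed to 215 to 385 FPKM in IgG and 283 to 454 FPKM in anti-PD-1, endothelial markers to 17.9 to 27.2 and 13.2 to 23.9 FPKM, and smooth muscle and pericyte markers to 52.7 to 62.1 and 33.7 to 82.5 FPKM, so these 3 sums overlapped between groups. The part of cell content in the differences of collagen chains between groups was not tested.

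Position in the genome also moved with the values. Tested genes on chromosomes 4 and 9 had median log2 fold changes of -0.40 and -0.36, far from the median of all tested genes. Of the 8 tested chains on these chromosomes, 5 had higher means in anti-PD-1, 0 were called higher and the median was 0.029. Of the 25 on other chromosomes, 23 had higher means, 3 were called higher and the median was 0.54. Over all tested genes 50.8% had higher means and 3.9% were called higher. These include Col14a1 and Col2a1 on chromosome 15, whose tested genes had a median of 0.17, the highest of the chromosomes with a tested chain. Col9a2, Col7a1 and Col16a1, 3 of the 5 chains with lower means, lie on chromosomes 4 and 9, but so do Col27a1 and Col15a1 with higher means. The part of chromosome in these values was not tested.

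Since collagens II, IX and XI are typical of cartilage, cartilage markers were examined beside them. The 13 chondrocyte markers summed to 197, 70.7 and 164 FPKM in IgG and 467, 348 and 622 FPKM in anti-PD-1, with no overlap. In every tumor except IgG replicate 2, where Sox9 was higher, the largest part was Comp, a fibril-binding matrix protein of cartilage and tendon, at 125, 18.5 and 95.7 FPKM in IgG and 390, 196 and 522 FPKM in anti-PD-1. Cnmd, or chondromodulin, was at 37.9, 12.2 and 2.98 FPKM in IgG and 36.8, 94.9 and 64.3 FPKM in anti-PD-1 (log2 fold change 2.29, SE 0.77, adjusted p = 0.358 by limma). Comp did not overlap between groups and Cnmd did. Sox9, the cartilage transcription factor that is also found in glandular epithelium, was between 21.0 and 37.6 FPKM in all tumors. The cartilage matrix genes Chad and Snorc reached 25.5 and 7.65 FPKM. Matn1, Hapln1 and Clec3a, which are typical of cartilage, were at 0 in all tumors, and the cartilage proteoglycan Acan was at most 0.817 FPKM. Of 6 tested markers 5 had higher means in anti-PD-1 and 2, Comp and Cnmd, were called higher, beside 50.8% and 3.9% of all tested genes. Of 7 osteoblast markers only Alpl, which other tissues also express, was tested, at 15.2, 27.9 and 21.4 FPKM in IgG and 6.83, 12.6 and 14.0 FPKM in anti-PD-1, lower without overlap (log2 fold change -0.90, SE 0.31, adjusted p = 0.364 by limma), while Ibsp was at 0 in all tumors. The part of cartilage-like content in the values of collagens II, IX and XI was not tested.

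For modification and folding, 17 of 18 genes that hydroxylate, glycosylate and fold collagen were tested, 10 had higher means, 0 were called higher and 2 were called lower, beside 3.9% and 4.53% of all tested genes (median 0.16, and -0.021 without anti-PD-1 replicate 3). Those were Plod2, a lysyl hydroxylase of telopeptides, at 16.5, 16.4 and 17.1 FPKM in IgG and 14.2, 5.01 and 10.7 FPKM in anti-PD-1 (log2 fold change -0.79, SE 0.33, adjusted p = 0.400 by limma), and P3h2, a prolyl hydroxylase (-0.76, SE 0.31, adjusted p = 0.397 by limma). The groups did not overlap for Plod2 and overlapped for P3h2. Crtap, a partner of prolyl hydroxylation, was higher without overlap but below 1.5-fold (0.40). The chaperone Serpinh1, also named Hsp47, was between 114 and 227 FPKM with no call.

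For propeptide processing, 6 of 8 genes were tested, 5 had higher means and 2 were called higher, beside 3.9% of all tested genes (median 0.48, and 0.17 without the filter). Adamts3, which cleaves the amino propeptide, was at 5.14, 1.20 and 2.20 FPKM in IgG and 5.23, 8.39 and 6.5048 FPKM in anti-PD-1. On the log2 scale the fold change was 1.12 (SE 0.37, adjusted p = 0.355 by limma, exact permutation p = 0.1). The groups did not overlap, but IgG replicate 1 lay just below the lowest anti-PD-1 tumor. Bmp1, which cleaves the carboxy propeptide, had a log2 fold change of 1.03 (SE 0.42, adjusted p = 0.395 by limma), and its enhancer Pcolce had 0.78 with an unadjusted p of 0.0618.

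The crosslinking list held the 5 lysyl oxidases, all tested, all with higher means in anti-PD-1 and 2 called higher, beside 3.9% of all tested genes. Their median was 0.74, ran from 0.45 without IgG replicate 2 to 1.24 without anti-PD-1 replicate 2, and over the 4 that limma-voom could test, without Lox, it was 1.47. Loxl3 was at 43.9, 11.0 and 13.1 FPKM in IgG and 58.2, 87.5 and 92.0 FPKM in anti-PD-1, with no overlap. Its log2 fold change was 2.01 (SE 0.49, adjusted p = 0.344 by limma, exact permutation p = 0.1). Loxl4 was at 3.13, 0.247 and 0.214 FPKM in IgG and 6.43, 3.05 and 4.45 FPKM in anti-PD-1, where IgG replicate 1 lay just above anti-PD-1 replicate 2 (1.57, SE 0.50, adjusted p = 0.355 by limma). Loxl1 was at 0.74 on the log2 scale with an unadjusted p of 0.149. Of the collagen-cleaving enzymes, 4 of 6 were tested and none was called (median 0.49, and 0.18 without IgG replicate 3, 3 higher means), and of the collagen receptors, 9 of 10 were tested and none was called (median -0.10, and 0.031 without IgG replicate 1, 4 higher means). Among these, the enzymes Ctsk and Mmp2 had log2 fold changes of 0.58 and 0.59, and the receptors Itga11, Lair1 and Ddr1 had 0.49, -0.29 and 0.32.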

How the data were processed

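RNA sequencing of 6 mammary tumors, 3 IgG and 3 anti-PD-1 by their labels, was analyzed. The authors deposited 1 FPKM value per Ensembl gene ID and tumor. The submitters' processing notes name FastQC 0.11.9, cutadapt 3.5, Bowtie2 2.4.1, RSEM 1.3.1, DESeq2 1.36.0, R 4.1 and the mm10 build. How FPKM was made and whether counting used strand are not given in the sources used here, so reads of overlapping genes on opposite strands cannot be told apart. IDs were named from GENCODE M21, and 37 of 54532 did not match. FPKM times exon length fell on whole reads, within 0.1, for 97.0% to 97.3% of values above 0 and in all tumors for 42 of 44 collagen genes, which gave the depth per tumor.

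FPKM was divided by median-of-ratios factors (1.00 to 1.01), 1 was added and log2 was taken, a scale that understates changes of low genes. Genes with a mean of at least 0.5 FPKM (15069) entered the test in R 4.3.3 by limma 3.58.1, with an intensity trend, two-sided, and Benjamini-Hochberg adjusted p-values over all of them. A gene was called at an unadjusted p under 0.05 and at least 1.5-fold, the form of threshold used in the study, apart from its minimum raw score. Exact two-sided permutation tests compared the log2 values of single genes, and 3 against 3 tumors cannot give less than 0.1. Named in full are the 3 most abundant chains per class, chains with an unadjusted p under 0.05, the 3 largest changes in each direction, chains listed in the study, and up to 3 genes per pathway list by p. Other chains and markers are given by level or range. Members and gene lists were chosen with earlier results of these data known. Same-numbered tumors of the 2 groups did not deviate together, so numbers were not taken as pairs. Alternatives were another pseudocount, filter, scaling, moderation and replicate block, limma-voom on recovered reads with TMM factors computed in a script, and leaving out tumors. Scripts were tested on simulated data. Promoters came from RefSeq (GRCm38.p6). Tables and figures were made with pandas 2.3.3, matplotlib 3.10.9 and numpy 2.4.6 under Python 3.11.15.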

Additional observations from a re-analysis of the deposited data

How the results depend on the processing

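Over 15 alternatives, 21 of 33 tested chains kept 1 direction, 19 of them higher in anti-PD-1, and 427 of 488 values of single chains kept their direction and side of the threshold. The replicate block makes the replicate number a term, although over all tested genes same-numbered tumors did not deviate together (r = -0.16, 0.01 and 0.19). It raised the chains called higher from 3 to 9 (4.4% of all tested genes in that fit), adding Col1a1, Col1a2, Col3a1, Col5a1, Col4a2 and Col15a1. Limma-voom gave 1 gene at the adjusted threshold. Leaving out 1 tumor in turn gave 366 to 1001 higher and 375 to 1233 lower genes in all and 0 to 12 at the adjusted threshold, highest without IgG replicate 1. Called chains ran from 2 to 8 higher (8 without IgG replicate 1, 7 without anti-PD-1 replicate 2) and from 0 to 1 lower (Col7a1 without IgG replicate 2). The FACIT median ran from 0.020 to 0.38, and that of the other chains from -0.12 to 0.55. The propeptide processing median was 0.91 at a mean of at least 2 FPKM. Without IgG replicate 2 and anti-PD-1 replicate 2, a setting added after seeing the data, 320 genes were lower in all, the collagen receptor median was 0.12, and 2 chains reversed, Col27a1 at -0.20 (Col25a1 was at -0.89) and Col16a1 at 0.31.

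Direction reversed under at least 1 alternative in 12 chains. Col5a3 was at -0.014 with a pseudocount of 0.1 and -0.0022 as deposited. With 1 tumor left out, log2 fold changes ran from -0.30 to 0.28 for Col5a3, 0.21 to 1.70 for Col27a1, -0.50 to 0.077 for Col4a4, -0.55 to 0.34 for Col16a1, -0.33 to 0.62 for Col12a1, -0.15 to 0.42 for Col20a1, -0.21 to 0.70 for Col6a1, -0.15 to 0.64 for Col6a2, -0.32 to 0.55 for Col6a3, -0.72 to 0.066 for Col25a1, -0.14 to 0.28 for Col10a1 and -0.064 to 0.25 for Col13a1. The cause was not tested. Fewer genes were tested at a mean of at least 2 FPKM (27 chains) and in limma-voom (32 chains, without Col11a2).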
